A study of Mus musculus with 3 samples.

Results

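The genes described here write, maintain or remove DNA methylation: Dnmt1, Uhrf1, Dnmt3a, Dnmt3b, Dnmt3l, Tet1, Tet2, Tet3 and Tdg. They were chosen by name, and every array probe whose RefSeq accession belongs to one of them was taken, which gave 18 of the 39429 distinct probes, for 9 of 21153 named genes. All 9 genes and 17 of the 18 probes were bright enough to be tested, and the remaining probe, of Tet3, was not. RNA came from mouse embryoid bodies, aggregates of differentiating embryonic stem cells, at day 8 of a cardiac differentiation protocol. On each of 3 two-colour Agilent arrays, Hopx-/- embryoid bodies grown with the tankyrase inhibitor XAV939 at 12.5 µM, which blocks Wnt signalling through β-catenin, were set directly against Hopx+/- embryoid bodies without it. The stem cell lines of both genotypes were derived from blastocysts on STO feeder cells and kept on inactivated mouse embryonic fibroblasts before differentiation. How many lines stand behind each genotype is not stated in the labels. Because genotype and inhibitor change together, their parts in any difference cannot be told apart. The labels call the 3 arrays biological replicates but say nothing of separate cultures or differentiations, so p-values measure only the spread between these arrays.

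In mammals most CpG cytosines carry a methyl group. Dnmt1 copies the pattern to the new strand after replication, guided by Uhrf1, which reads hemimethylated DNA. Dnmt3a and Dnmt3b set methylation on unmethylated DNA, and Dnmt3l, which has no catalytic activity, stimulates them. Tet1, Tet2 and Tet3 oxidise methylcytosine to hydroxymethylcytosine and further products, which the glycosylase Tdg excises so that base excision repair can restore cytosine. In the early mouse embryo Dnmt3b is a well-known gene of the epiblast at implantation, when the genome gains methylation, and Tet1 and Tet2 are both expressed in embryonic stem cells. The arrays measured RNA and not methylation itself.

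The promoters of 3 members are shown because these genes span the range of outcomes: Dnmt3b had the largest difference, Tet2 was the one member called lower, and Dnmt3l was not called. Each line is the 250 bases before the first annotated start of the gene, 5′ to 3′ on the gene's own strand, from RefSeq on GRCm38.p6, with every CpG in capitals.
Dnmt3b, chr2:153649199-153649448, plus strand: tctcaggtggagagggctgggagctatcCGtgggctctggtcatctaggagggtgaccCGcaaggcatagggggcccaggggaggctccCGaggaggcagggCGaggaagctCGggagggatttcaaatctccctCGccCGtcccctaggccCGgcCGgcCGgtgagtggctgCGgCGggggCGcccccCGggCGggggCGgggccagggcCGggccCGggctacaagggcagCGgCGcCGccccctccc
Tet2, chr3:133544391-133544640, minus strand: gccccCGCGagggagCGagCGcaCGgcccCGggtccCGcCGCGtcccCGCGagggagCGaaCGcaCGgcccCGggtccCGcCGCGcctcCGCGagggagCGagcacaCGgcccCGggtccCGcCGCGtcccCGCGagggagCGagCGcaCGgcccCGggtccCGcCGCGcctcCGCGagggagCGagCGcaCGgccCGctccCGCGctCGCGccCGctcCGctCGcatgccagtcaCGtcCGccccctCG
Dnmt3l, chr10:78042037-78042286, plus strand: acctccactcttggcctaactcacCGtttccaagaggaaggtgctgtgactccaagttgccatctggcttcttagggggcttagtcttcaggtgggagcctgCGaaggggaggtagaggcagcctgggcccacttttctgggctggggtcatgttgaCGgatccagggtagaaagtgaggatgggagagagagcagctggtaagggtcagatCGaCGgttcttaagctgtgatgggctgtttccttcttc
The Dnmt3b stretch holds 21 CpGs and the Tet2 stretch 51, against a median of 6 over 32851 promoter stretches of the same length. The Dnmt3l stretch holds 5. Tet2 stands at percentile 99.9 of those stretches for CpG count, Dnmt3b at 84.4 and Dnmt3l at 47.0. CpG count did not separate called members from the others, taking every listed start of a gene and not only the first. Dnmt3a, which was not called, has starts with 38 and 40 CpGs (percentiles 98.3 and 98.8), above Dnmt3b. Another Dnmt3a start has 15 CpGs (percentile 73.6), below Dnmt3b. The Dnmt1 starts stand at percentiles 90.9, 55.35 and 23.9, and the Uhrf1 starts at 63.3 and 94.4. RefSeq lists 16 start sites for the 9 members in all.

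The 16 member promoters were searched for 3 motifs, and windows of Dnmt1 and Uhrf1 are shown because they held the matches. The E2F-type motif TTTNNCGC, looked for on both strands of the 300 bases from 250 before to 50 after each start, was present in 5.17% of all promoters. It was found in 3 of the 16 member promoters, 1 of Dnmt1 and both of Uhrf1. Capitals mark the matched letters in these windows. The Dnmt1 window holds 2 overlapping matches on the opposite strand, and a further match lies 34 bases into the Dnmt1 transcript.
Dnmt1, chr9:20952823-20952852, minus strand: gtttccgcgcGCGCGAAAAAgccggggtct
Uhrf1, chr17:56303270-56303299, plus strand: gccccacttgcTTTCTCGCttcccgccaca
Uhrf1, chr17:56304117-56304146, plus strand: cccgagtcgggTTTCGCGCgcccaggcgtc
Neither the octamer ATGCAAAT (1.74% of all promoters, both strands) nor the TCF/LEF-type CTTTGAT (3.73%) had a match in the 16 member promoters. These matches are letters in a window and not measured binding.

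Which way every ratio below runs is likely but not settled. By the labels the Hopx-/- RNA was in Cy5 on all 3 arrays, but the Cy5 over Cy3 ratios of array 3 correlated at -0.88 and -0.91 with those of arrays 1 and 2 over 24376 probes, while arrays 1 and 2 correlated at 0.96. The authors' processed values carry array 3 with the opposite sign (r = -0.94 with its Cy5 over Cy3 ratio), so array 3 was turned here. This goes against its label. Were the overall direction the other one, all signs below would be exchanged. With array 3 used as labelled, 0 of the 9 members and 0 of all genes passed in either direction by limma, with 13 genes higher and 27 lower at an unadjusted p below 0.05. Hopx itself was lower in the Hopx-/- RNA on each array, at -2.65, -2.75 and -2.73 on the log2 scale, a mean of -2.71 ± 0.05 (SD, n = 3) or 6.54-fold lower. A second Hopx probe was 4.77-fold lower (-2.25 ± 0.15). The labels do not say which part of Hopx was deleted, so what these probes can check is limited. The share of probes well above background ran from 55.3% to 65.6% in the Hopx-/- RNA and from 60.6% to 67.2% in the Hopx+/- RNA. Slide 1 carried array 1, and slide 2 carried arrays 2 and 3.

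Of the 9 members, 6 were higher and 1 was lower in the Hopx-/- embryoid bodies with XAV939, and 2 did not pass the test. Dnmt3b, Uhrf1, Tet1, Dnmt1, Tdg and Tet3 were higher, in that order of size, and Tet2 was lower. The test was limma's moderated test of the mean log2 ratio against 0, adjusted by Benjamini and Hochberg over 14705 genes, with a threshold of 0.05. Across all these genes 64.5% passed, 31.5% higher and 33.0% lower, so a call by itself does not set a member apart. The median of the 9 members was 0.37 on the log2 scale, against -0.01 over all genes tested. Of the 17 tested probes 11 were called higher and 2 lower, where 60.2% of all tested probes passed, 28.7% higher and 31.4% lower. All ratios below are log2 of Hopx-/- with XAV939 over Hopx+/-, with the SD over 3 arrays, and each gene is given by its brightest tested probe unless another is named.

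**Figure D1:**
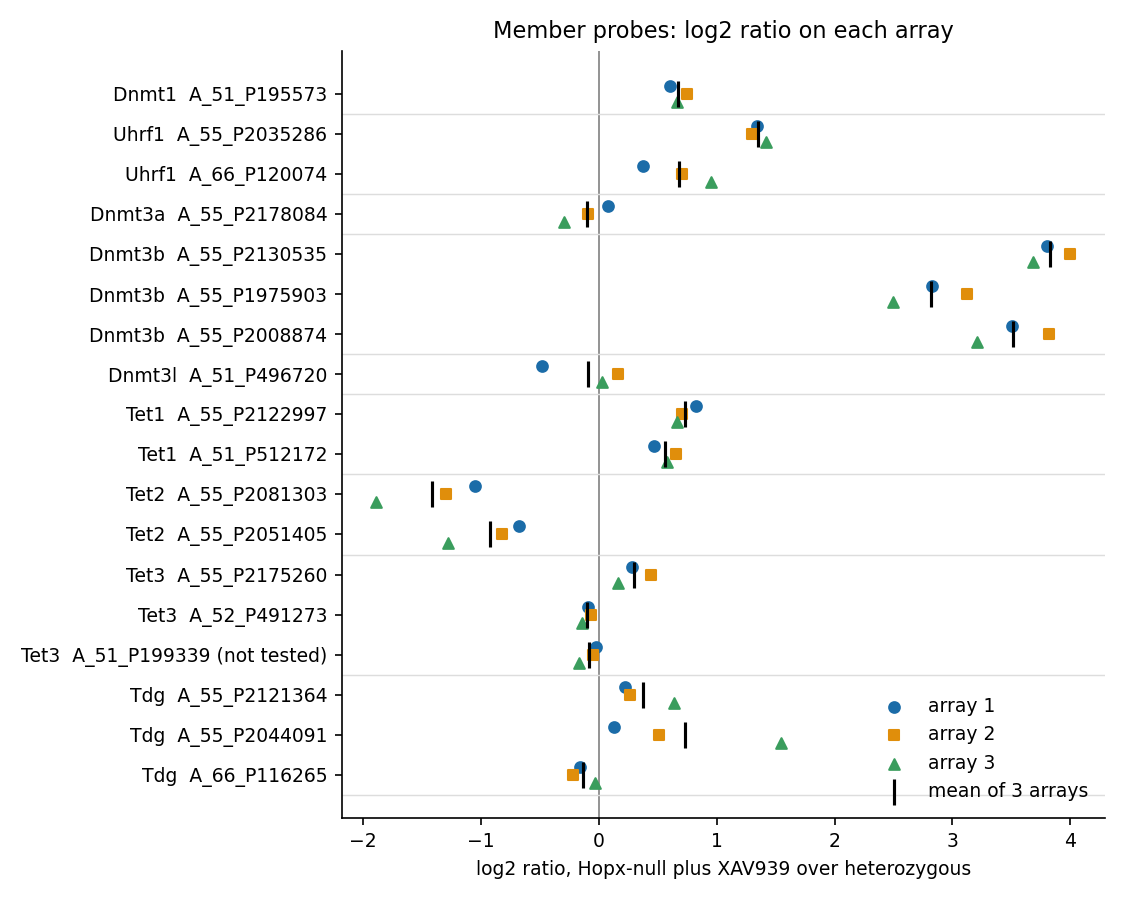
Log2 ratio of Hopx-/- with XAV939 over Hopx+/- for each of the 18 member probes, with 1 point for each array and a bar at the mean of the 3 arrays. The 3 Dnmt3b probes lie between 2.49 and 3.997, both Tet2 probes lie below 0 on each array, and the Tdg and Tet3 probes fall on both sides of 0.

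The maintenance pair was higher in the Hopx-/- embryoid bodies with XAV939. Dnmt1, the maintenance methyltransferase, had a normalized log2 intensity of 10.42, 10.44 and 10.50 in the Hopx-/- RNA and of 9.81, 9.70 and 9.83 in the Hopx+/- RNA on arrays 1, 2 and 3. Both sets lie close together and do not overlap. The share of all genes tested without overlap is not given here. A lack of overlap therefore does not set Dnmt1, or any member below, apart. The within-array ratios were 0.61, 0.75 and 0.66, a mean of 0.67 ± 0.07 or 1.59-fold higher (limma adjusted p = 0.000349). Uhrf1, its guide to hemimethylated DNA, read 13.97, 14.13 and 14.09 against 12.63, 12.82 and 12.66. Again every Hopx-/- value was above every Hopx+/- value. The Uhrf1 ratios of 1.34, 1.30 and 1.42 gave a mean of 1.35 ± 0.06, or 2.56-fold higher (adjusted p = 5.48e-06), rank 570 of 14705 genes from the highest.

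A second and much dimmer Uhrf1 probe, for another RefSeq transcript accession, gave 0.38, 0.71 and 0.95. Its mean of 0.68 ± 0.29 was also called higher over all probes (limma adjusted p = 0.00158). It did not pass in the form of the data that kept local backgrounds marked as outliers, where its ratio was 0.43. Within each array the brightest Uhrf1 probe exceeded Dnmt1 by 0.68 ± 0.11. That gap rests on the choice of probe: it was 0.00828 with the dimmest probe of each gene and 0.35 with the mean over probes. The gap was not tested; an exact sign-flip test over 3 arrays cannot give a p below 0.25.

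Genes of DNA replication and S phase, in which Dnmt1 and Uhrf1 act, were also higher. Where 31.5% of all genes tested were called higher, 15 of 15 listed genes were, with a median of 1.16. Their summed normalized intensity was 244956 to 266988 in the Hopx-/- RNA and 101127 to 112514 in the Hopx+/- RNA. The part of cycling cells in the Dnmt1 and Uhrf1 result was not tested. In RNA from whole embryoid bodies, fewer cells of a type and less RNA per cell cannot be told apart.

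The 3 genes of de novo methylation did not move together. Dnmt3b was 14.2-fold higher in the Hopx-/- embryoid bodies with XAV939, while neither Dnmt3a nor Dnmt3l passed. For Dnmt3b the normalized log2 intensity was 15.65, 15.34 and 16.20 in the Hopx-/- RNA and 11.84, 11.34 and 12.51 in the Hopx+/- RNA. The lowest Hopx-/- value was well above the highest Hopx+/- value, and array 3 read highest in both RNAs. The ratios were 3.80, 3.997 and 3.68, with a mean of 3.83 ± 0.16, a 95% confidence interval of 3.59 to 4.07 and a limma adjusted p of 8.43e-08. Only 7 of the 14705 genes tested had a higher mean ratio, as Dnmt3b ranked 8 from the highest; with the direction turned it would rank 8 from the lowest.

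The raw spot signals have the same direction with a wider spread. The brightest Dnmt3b probe read 65523, 65528 and 62404.5 in the Hopx-/- RNA against 2532, 2150.5 and 6466 in the Hopx+/- RNA. Its raw folds were 25.9, 30.5 and 9.65, against normalized folds of 14.0, 16.0 and 12.8. The Hopx-/- signals of arrays 1 and 2 stand at the ceiling of the arrays, 65529, although Feature Extraction did not mark the spots as saturated. The 14.2-fold value, its interval, the rank, the gaps to Dnmt3a and Dnmt3l and the distances to other genes below therefore rest on signals that may be limits. The other Dnmt3b probes stayed clear of that ceiling. One read 32920, 51332 and 21054.5 against 1564, 1917 and 3077, and its ratios were 3.51, 3.82 and 3.21, an 11.4-fold difference (3.51 ± 0.30). The other read 35266, 42774 and 27024 against 2698, 2586 and 6442.5, with ratios of 2.82, 3.13 and 2.49, a 7.04-fold difference (2.81 ± 0.32). On all 3 probes array 2 gave the largest ratio and array 3, on which the dyes are taken as exchanged, the smallest. All 3 Dnmt3b probes passed over all probes tested, and the gene passed in each of the 15 alternative forms of the processing other than array 3 as labelled, at 3.38 to 4.15.

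**Figure D2:**
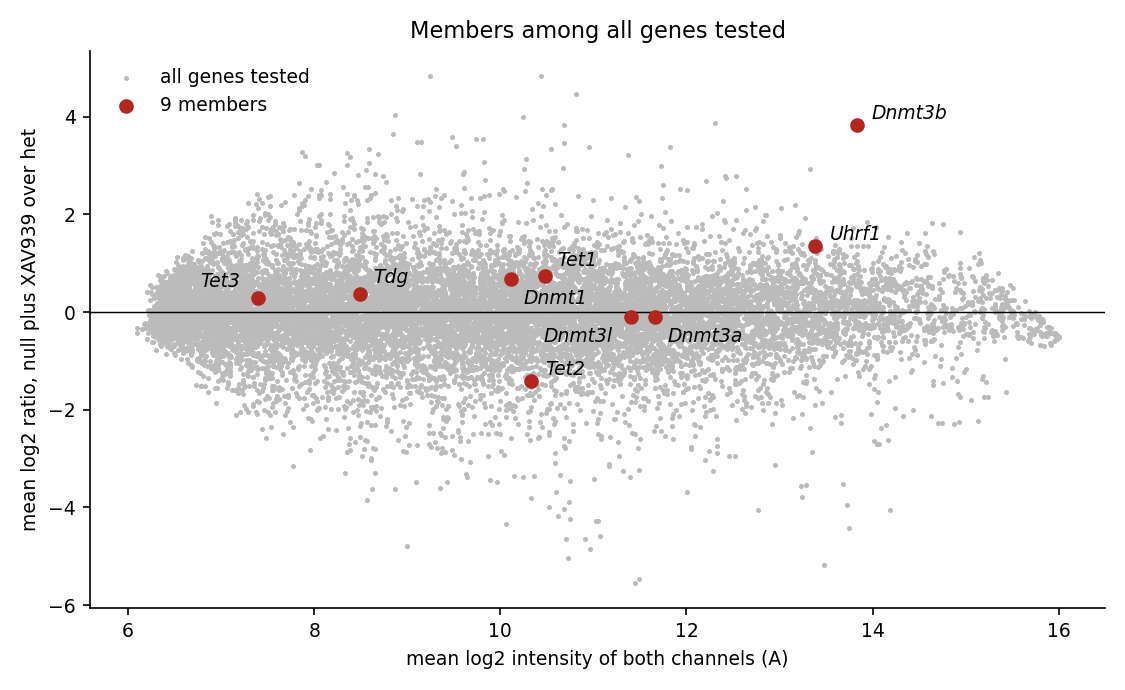
Mean log2 ratio over 3 arrays (vertical) against the mean log2 intensity of both channels (horizontal) for the 14705 genes tested in grey and the 9 members in red. Dnmt3b, at 3.83, is far above the other members, Uhrf1 follows at 1.35, and Tet2 at -1.41 is the lowest.

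Dnmt3a, the paralogue of Dnmt3b, had ratios of 0.08, -0.09 and -0.29. Its normalized log2 intensities were 11.78, 11.61 and 11.47 in the Hopx-/- RNA and 11.70, 11.70 and 11.76 in the Hopx+/- RNA, and the 2 sets overlap. The mean of -0.10 ± 0.19 did not pass (limma adjusted p = 0.455), and its 95% confidence interval ran from -0.35 to 0.15. Dnmt3l, the catalytically inactive cofactor, read 11.21, 11.44 and 11.43 against 11.69, 11.28 and 11.40. Its ratios were -0.48, 0.17 and 0.03, so array 1 had the opposite sign to the other arrays. The mean of -0.09 ± 0.34 did not pass either (adjusted p = 0.572, interval -0.40 to 0.21). For both genes the mean turned positive with median centring, to 0.15 and 0.14, again without passing. Each of these genes rests on 1 probe, so no other probe could be set beside it.

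Set against each other within an array, Dnmt3b exceeded Dnmt3a by 3.72, 4.09 and 3.97, a mean of 3.93 ± 0.19 or 15.2-fold. The gap between Dnmt3b and Dnmt3l was 4.28, 3.83 and 3.65, a mean of 3.92 ± 0.32. These are differences between ratios and not between RNA levels, and they were not tested.

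**Figure D3:**
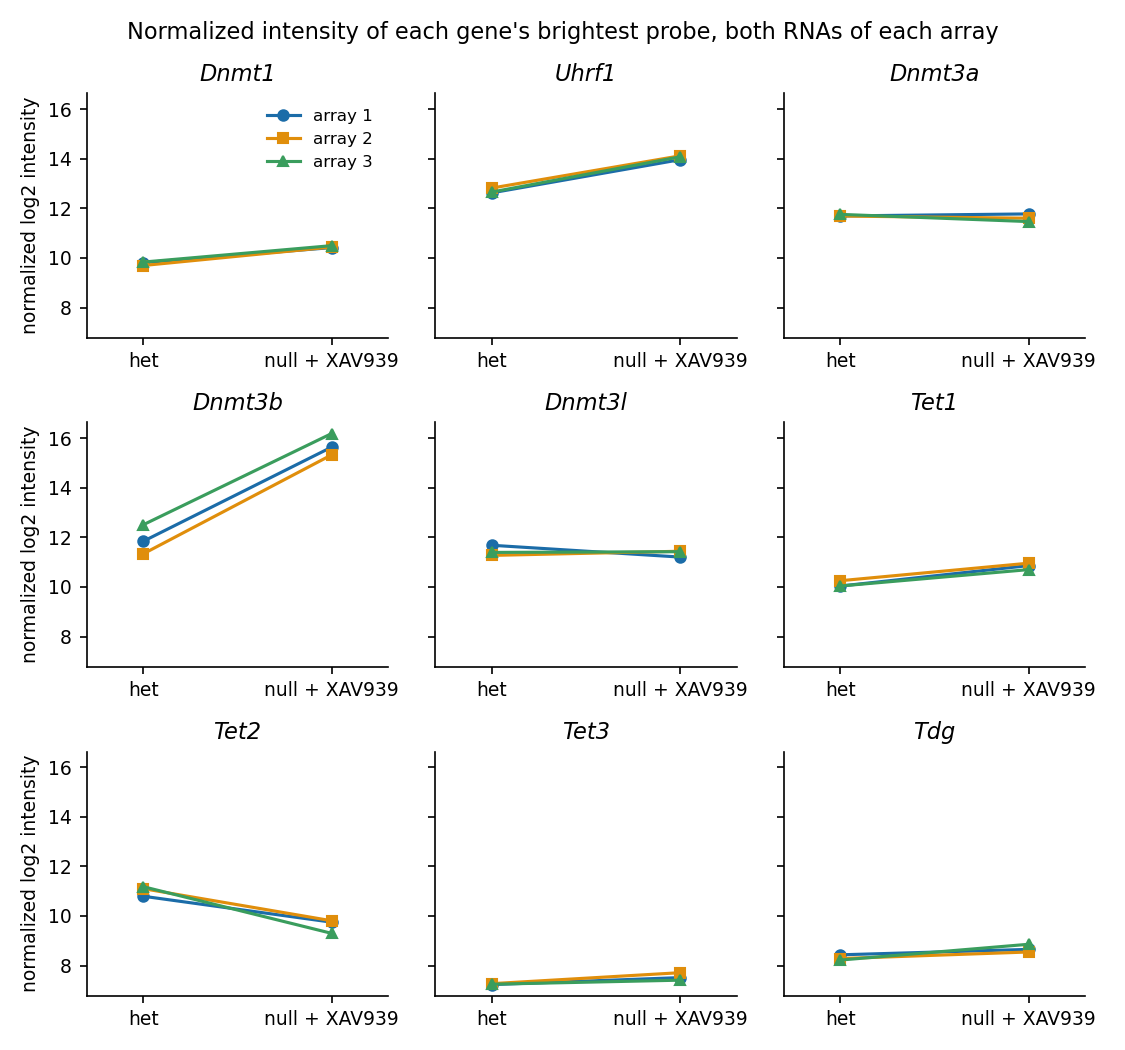
Normalized log2 intensity of the brightest probe of each member in the Hopx+/- RNA (het) and in the Hopx-/- RNA with XAV939 on each array, with a line joining the 2 RNAs of 1 array. Dnmt3b climbs steeply on all 3 arrays, Tet2 falls on all 3, and the lines of Dnmt3a and Dnmt3l are near flat or cross; heights of different genes are not comparable because they come from different probes.

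Most listed markers of the epiblast after implantation, and all those shared by pluripotent cells, were higher as Dnmt3b was, while the naive list was split. Over all genes tested 31.5% were higher and 33.0% lower. Of 9 genes of the epiblast after implantation 8 were higher and none lower, with a median of 2.78. Their summed normalized intensity was 42989 to 50580 in the Hopx-/- RNA against 8409 to 9783. All 8 pluripotency genes shared by naive and later cells were higher (median 1.46; summed 84752 to 98785 against 31197 to 36036). The naive pluripotency list had 4 of 10 higher and 5 lower and a median of -0.53 (summed 8341 to 9201 against 15157 to 16860, and 7623 to 8382 against 9110 to 9297 without Tbx3). Cardiomyocyte genes, the cells the protocol aims at, were well above background in both RNAs, and 7 of 7 were lower, with a median of -1.76 (19483 to 23836 against 90671 to 106801). Of the fibroblast and feeder genes 1 of 8 was higher and 5 were lower (median -1.15; 18256 to 28153 against 34257 to 49676). The part of any of these cell types in the Dnmt3b result was not tested. Of 3 tested sex-linked genes 1 was called, the Y-linked Eif2s3y, lower at -1.92 ± 0.25. Ddx3y (-0.31, limma adjusted p = 0.0584) and Uty (-0.22, adjusted p = 0.0816) did not pass, and Xist was not well above background in either RNA.

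Over the 3 arrays the named genes whose ratios lay nearest to those of Dnmt3b, by Euclidean distance, were Slc7a3, Slc45a1, Myb, Slc35d3 and Fgf5. Their distances were 0.380, 0.394, 0.422, 0.446 and 0.449. Fgf5, a growth factor of the epiblast that is also on the epiblast list, had ratios of 3.80, 4.44 and 3.72. Slc7a3, an amino acid transporter, had 3.91, 4.25 and 3.42, and the transcription factor Myb had 3.55, 3.85 and 3.38. The distance takes in size and pattern together and rests on 3 arrays.

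The 3 Tet dioxygenases differed in direction. Tet1 was 1.66-fold higher in the Hopx-/- embryoid bodies with XAV939, Tet2 was 2.66-fold lower, and Tet3 was 1.23-fold higher on one probe only. For Tet1 the normalized log2 intensity was 10.86, 10.96 and 10.70 in the Hopx-/- RNA and 10.04, 10.25 and 10.04 in the Hopx+/- RNA. The sets do not overlap. Ratios of 0.83, 0.71 and 0.66 gave a mean of 0.73 ± 0.08 (limma adjusted p = 0.000218), and the second Tet1 probe gave 0.57 ± 0.09 (adjusted p = 0.00122 over all probes). That second probe no longer passed with marked local backgrounds kept, with median centring or in the authors' processed values, where it read 0.37, 0.63 and 0.29.

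Tet2 read 9.75, 9.81 and 9.30 in the Hopx-/- RNA and 10.80, 11.10 and 11.18 in the Hopx+/- RNA. Each Hopx-/- value was below each Hopx+/- value. The Tet2 ratios were -1.05, -1.30 and -1.88, so array 3 gave the largest difference, and the mean was -1.41 ± 0.43 with a 95% confidence interval of -1.76 to -1.06 (limma adjusted p = 5.76e-05). It ranked 718 of 14705 genes from the lowest. The second Tet2 probe had -0.68, -0.82 and -1.28, a mean of -0.92 ± 0.31 or 1.90-fold lower (adjusted p = 0.000341 over all probes). It too was lowest on array 3. With marked local backgrounds kept this second probe read -0.65 and did not pass.

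Tet3, the third of the family, gave no common answer on its probes. Its brightest probe had ratios of 0.28, 0.44 and 0.16, a mean of 0.30 ± 0.14 (limma adjusted p = 0.0331). The call did not hold without array 1 (0.30, adjusted p = 0.127) or without array 2 (0.22, adjusted p = 0.284), and passed in 7 of the 15 alternative forms. A second probe gave -0.10 ± 0.04 and did not pass (adjusted p = 0.414), and the third was not well above background in either RNA.

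Within each array Tet1 exceeded Tet2 by 1.87, 2.00 and 2.55, a mean of 2.14 ± 0.36 or 4.41-fold, and by 1.49 with the dimmest probes. Tet1 exceeded Tet3 by 0.44 ± 0.15. The marker lists given beside Dnmt3b stand beside Tet1 and Tet2 as well, and their part in these results was not tested. Primordial germ cell markers, cells in which Tet1 is known to act, were split, with 2 of 7 higher and 3 lower and a median of -0.02 (summed 6692 to 7694 in the Hopx-/- RNA against 7641 to 8094). These shares, 28.6% and 42.9%, stand beside 31.5% higher and 33.0% lower over all genes tested, so the counts do not set these markers apart.

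Tdg, the glycosylase that follows the Tet enzymes, differed between its probes. The brightest had normalized log2 intensities of 8.65, 8.55 and 8.86 in the Hopx-/- RNA and 8.43, 8.28 and 8.22 in the Hopx+/- RNA, with ratios of 0.22, 0.27 and 0.64. Its mean of 0.37 ± 0.23, 1.30-fold higher, passed (limma adjusted p = 0.0190), with array 3 well above the others. The call was lost without array 2 (0.43, adjusted p = 0.0556) and held in 8 of the 15 alternative forms. A second probe gave 0.13, 0.51 and 1.54 (0.73 ± 0.73, adjusted p = 0.0212 over all probes), so most of its mean came from array 3. The third gave -0.13 ± 0.10 and did not pass (adjusted p = 0.275).

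**Figure D4:**
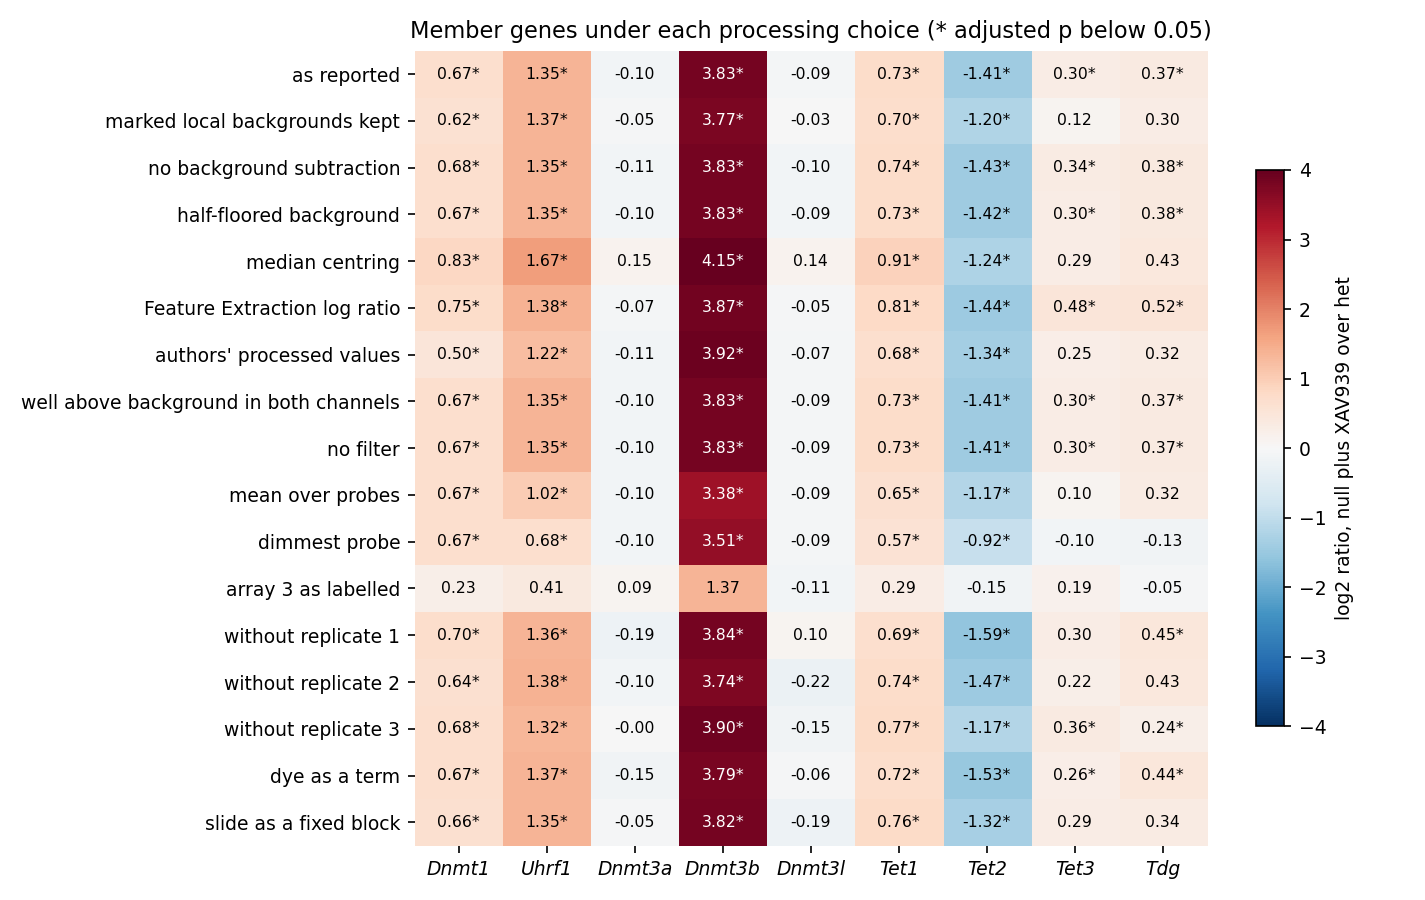
Log2 ratio of each member, Hopx-/- with XAV939 over Hopx+/-, as reported and under each of 16 other processing choices, with an asterisk where the limma adjusted p was below 0.05. Dnmt1, Uhrf1, Dnmt3b, Tet1 and Tet2 carry the asterisk in every line except array 3 as labelled, Tet3 and Tdg lose it in several, and Dnmt3a and Dnmt3l have none.

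Lists of genes around the members were counted in the same test. Of the 5 lists, the one named methyl donor supply had the largest share higher, 83.3% of its tested genes, against 31.5% of all genes tested. It also holds genes that draw from the cycle, such as Cbs. The methyltransferase partners and the germline genes each had 66.7% higher, the demethylation list 35.3% and the readers 25%. Called lower were 35.3% of the demethylation list, 33.3% of the germline genes, 26.7% of the partners and 25% of the readers. Over all genes tested 33.0% were lower. Among 15 partners and recruiters of the methyltransferases 10 were higher, 4 lower and 1 did not pass, with a median of 0.62. Cdca7 (1.60 ± 0.34), Cdca7l (1.34 ± 0.22) and the remodeller Hells (1.29 ± 0.06), which acts with Cdca7 and opens nucleosomal DNA to methylation, were higher. So were Trim28 (1.24 ± 0.08), the corepressor of KRAB zinc finger proteins, the replication clamp Pcna (0.97 ± 0.07), the H3K9 methyltransferase Ehmt1 (0.66 ± 0.43) and the deubiquitinase Usp7 (0.62 ± 0.45). Dppa3, which protects DNA from methylation in the oocyte, was also higher (1.07 ± 0.21), with 2 of 3 arrays well above background in the Hopx+/- RNA. Ehmt1, Usp7 and Dppa3 lost their calls when marked local backgrounds were kept, and Usp7 also without array 2.

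The lower partners were Uhrf2, a homologue of Uhrf1 (-0.67 ± 0.34), Ehmt2 (-0.41 ± 0.23), the imprint-keeping zinc finger Zfp57 (-0.37 ± 0.28) and 1 further gene, Zbtb24. None of these 4 lower calls held with median centring or with marked local backgrounds kept, and without array 2 only that of Uhrf2 held. Limma adjusted p-values of the called partners ran from 7.21e-06 to 0.0343. Of the 2 Uhrf genes, then, Uhrf1 was higher in every form of the data other than array 3 as labelled, and Uhrf2 passed as lower in 13 of 15.

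Methyl donor supply covers the folate and methionine cycles, which make S-adenosylmethionine. Of 12 tested genes of this list 10 were higher, none was lower and 2 did not pass, with a median of 0.91 and limma adjusted p-values of the called genes from 7.04e-07 to 0.0225. A further 2 listed genes, Mat1a and Bhmt, were not bright enough to be tested. Mthfd2, a mitochondrial folate enzyme, was at 2.06 ± 0.10 (4.16-fold higher). Cbs, which draws homocysteine out of the cycle, was at 1.84 ± 0.11, and Mat2a, which makes S-adenosylmethionine outside the liver, at 1.74 ± 0.08. Mthfd1 (1.14 ± 0.13), Gnmt (1.03 ± 0.17), Ahcy (0.96 ± 0.29), Shmt2 (0.85 ± 0.29) and Shmt1 (0.53 ± 0.24) were higher too. With marked local backgrounds kept 6 of the 12 passed as higher; Gnmt and Shmt1 were among those lost.

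**Figure D5:**
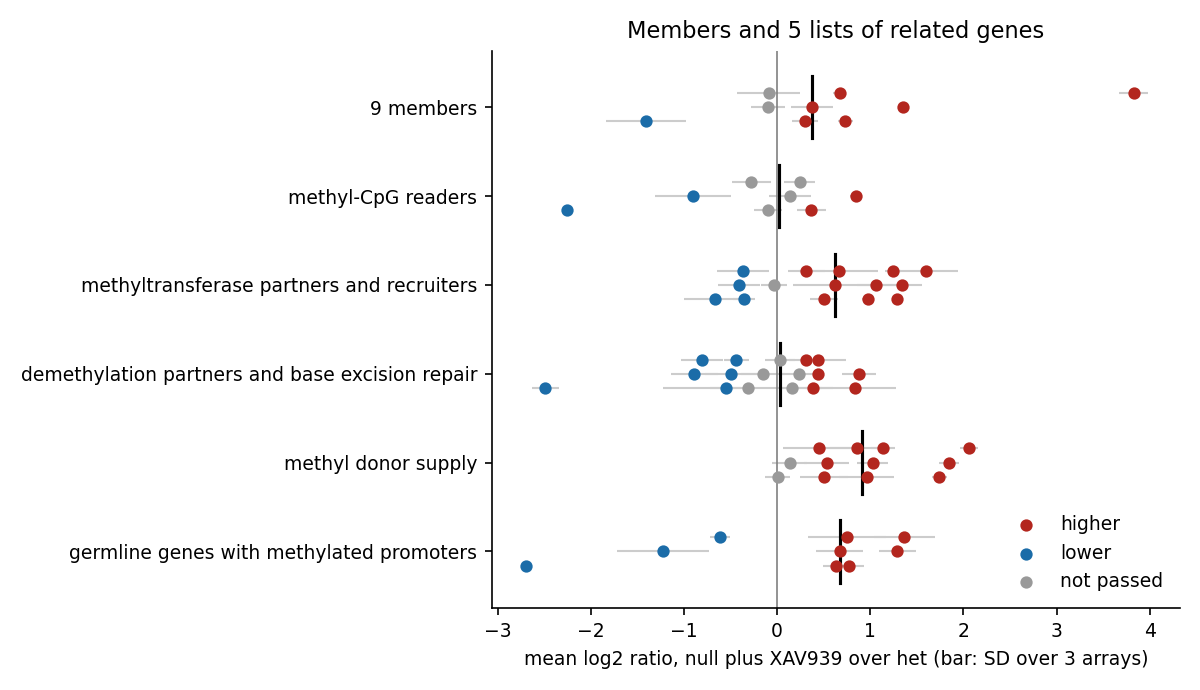
Mean log2 ratio of each tested gene among the 9 members and the 5 lists of related genes, with a thin bar for the SD over 3 arrays and a thick mark at the median of each list; red is higher, blue lower and grey not passed. Methyl donor supply has no lower gene and a median of 0.91. The germline genes have a median of 0.67 and the partners of 0.62. The readers and the demethylation list have medians near 0.

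Proteins that read methylated CpGs were evenly split. Of 8 readers 2 were higher, 2 lower and 4 did not pass, with a median of 0.02. That is 25% in each direction, against 31.5% higher and 33.0% lower over all genes tested, so the counts do not set the readers apart. Zbtb4, a zinc finger protein that binds methylated DNA, was 4.77-fold lower (-2.26 ± 0.06, limma adjusted p = 4.09e-07), and Mbd2 was lower at -0.90 ± 0.41. Mbd3, a subunit of the NuRD complex, was higher at 0.85 ± 0.07 and Mbd1 at 0.36 ± 0.15. Zbtb4 passed in 15 of 15 alternative forms, at -2.47 to -0.89, so its size depends on the processing. Mbd2 did not pass with median centring or with marked local backgrounds kept. Mbd1 passed in 8 of 15 alternative forms, failing without array 1 and without array 2, and kept its sign in 13. Without array 3 the readers called higher numbered 4.

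Partners of demethylation and base excision repair were split as well. Of 17 tested genes 6 were higher, 6 lower and 5 did not pass, with a median of 0.03. These shares, 35.3% in each direction, are near those over all genes tested, 31.5% higher and 33.0% lower. The counts therefore do not set this list apart. Apex1, the endonuclease that cuts the abasic site Tdg leaves, was higher (0.88 ± 0.18), as were the glycosylase Neil3 (0.83 ± 0.44) and Idh1 (0.44 ± 0.31), a source of the 2-oxoglutarate that Tet enzymes use. Gadd45b, a stress-response gene linked to demethylation, was 5.61-fold lower (-2.49 ± 0.14, limma adjusted p = 3.47e-07). Idh2, the mitochondrial counterpart of Idh1 (-0.89 ± 0.25), Neil2 (-0.81 ± 0.23) and Cxxc4, which binds Tet2 protein (-0.55 ± 0.17), were lower, Cxxc4 being well above background in the Hopx-/- RNA on 2 of 3 arrays. Idh1 and Cxxc4 lost their calls with marked local backgrounds kept, with median centring and in the authors' values, and Idh2 with median centring.

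Germline genes whose promoters are known to be methylated in somatic cells were divided. Of 9 tested genes 6 were higher and 3 lower, with a median of 0.67, while 6 of the 15 listed were not well above background often enough to be tested. The share lower, 33.3%, is near the 33.0% of all genes tested, and the share higher, 66.7%, stands beside 31.5%. Hormad1 (1.37 ± 0.33), Ddx4 (1.29 ± 0.20), Stk31 (0.77 ± 0.16), Tex19.1 (0.75 ± 0.42) and Mael (0.67 ± 0.25) were higher. Hormad1 and Stk31 were each well above background in the Hopx+/- RNA on 1 of 3 arrays. Rhox5, an X-linked homeobox gene, was 6.48-fold lower (-2.70 ± 0.03, limma adjusted p = 2.07e-07), and the meiotic gene Sycp1 (-1.23 ± 0.49) and Taf7l (-0.61 ± 0.11) were lower, with Sycp1 well above background in the Hopx-/- RNA on 2 of 3 arrays. The summed intensity of the tested genes was 9299 to 10731 in the Hopx-/- RNA and 41072 to 52504 in the Hopx+/- RNA, and Rhox5 decides that sum. Without Rhox5 it was 3101 to 3437 against 2496 to 2721, the direction of the median. With marked local backgrounds kept 3 were higher and 1 lower. Neither the methylation of these promoters nor its relation to Dnmt3b was measured.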

How the data were processed

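Gene expression was measured on 3 two-colour arrays. Per the file headers they share probe design 026655 (mouse build mm9), with 44397 spots, 43020 of them not controls. The deposited spot and background values are median pixel intensity per channel, extracted by the authors with Agilent Feature Extraction (11.5.1.1 per the file headers, 8.5.1.1 per the submitters' processing notes). Feature Extraction's own ratio was deposited as log10, Cy5 over Cy3. The values processed by the authors appear to be log2 ratios from their slopes on the scanner log2 ratios (0.688, 0.799 and -0.798), with column medians of 0.085, -0.08 and 0.053. Their normalization and centring are not given in the sources used here, and their column for array 3 has the sign of Cy3 over Cy5. Per the file headers the other columns used are marks of 0 or 1 for saturated, outlying or well-above-background spots.

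Median signals were corrected with normexp (offset 50), local backgrounds marked as outliers being replaced by the channel's median, and loess-normalized in limma 3.58.1 (R 4.3.3). Probes, named through RefSeq accessions, were tested if 1 or both channels were well above background on each of the 3 arrays. Levels in single channels were set by Aquantile. Each gene was its brightest tested probe; each probe has its own row in a fit over 24376 probes. In the fit over genes the spread was estimated with 8.65 degrees of freedom, of which 6.65 came from a prior shared over genes. The spread behind the p-values and intervals therefore rests only in part on a gene's own 3 ratios. The number of arrays limits the precision (median SD 0.166). Limma's test was also run on simulated ratios of 14705 genes, with 200 genes changed in each of 5 runs. There it recovered 67.6% of 2-fold and 92.8% of 4-fold changes, with 2.03% of calls false. In the measured data 64.5% of genes were called, a far larger share, so these rates need not hold for them.

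The members, gene lists, rules and turning of array 3 were chosen with earlier results of these data known. All members and their probes are named; in each of the 5 lists of related genes, those that passed with an absolute mean log2 ratio of 1 or more, and otherwise at most the 3 largest in each direction; marker genes only where a result turns on them; Hopx; and the 5 genes nearest to Dnmt3b. Genes outside this rule (Zbtb24, untested genes, the sex-linked genes, Tbx3) were named after their values were seen. Some list genes are not reported by name here. Alternatives covered background, normalization, filter, probe choice, the authors' values, array 3, each array left out, dye and slide.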

Additional observations from a re-analysis of the deposited data

How the results depend on the processing

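Dnmt1 (0.50 to 0.83), Uhrf1 (0.68 to 1.67), Dnmt3b (3.38 to 4.15), Tet1 (0.57 to 0.91) and Tet2 (-1.59 to -0.92) kept their direction and their call in 15 of 15 alternatives other than array 3 as labelled. Dye as a term and slide as a fixed block were added after the data were examined. With array 3 as labelled, no gene, member, member probe or list gene was called (0 in each direction), Dnmt3a read 0.0948, Tdg -0.0507, and the second Tdg probe -0.30. The differences then were 1.28 (Dnmt3b minus Dnmt3a), 1.49 (Dnmt3b minus Dnmt3l), 0.44 (Tet1 minus Tet2), 0.10 (Tet1 minus Tet3) and 0.18 (Uhrf1 minus Dnmt1); turning back an array that runs the opposite way cancels the means by construction. With marked local backgrounds kept, 2667 genes were higher and 2258 lower, member probes numbered 6 and 1, and list genes 20 and 5, against 34 and 15 as reported. With median centring 3034 genes were higher and 2019 lower (60.0% of calls higher against 48.9%), 5 list genes were lower, Dnmt3a read 0.15, Dnmt3l 0.14, Tet1 minus Tet3 0.62 and Uhrf1 minus Dnmt1 0.83. In the authors' values 7 member probes were higher and the second Tet3 probe read 0.0213. With the dimmest probe Tdg read -0.13 and Tet3 -0.10, and the differences, in the same order without Dnmt3l, were 3.61, 1.49, 0.66 and 0.00828; with the mean over probes Dnmt3b minus Dnmt3a and Dnmt3b minus Dnmt3l were both 3.48 and Uhrf1 minus Dnmt1 0.35. The cause was not tested for any of these, nor was the reason why array 3 runs the opposite way. Without 1 array, 3502 to 5278 genes were higher and 3709 to 5340 lower, 4 to 6 members higher and 1 lower, and Dnmt3l ran from -0.22 to 0.10, turning positive without array 1. Values of single genes, probes and lists were tallied over all 16 alternatives, array 3 as labelled and the cases named above included. Of these, 698 kept both sign and outcome of the test or, for counts, stayed near the reported count. A further 52 counts moved, 49 values kept their sign but lost their call, and 14 reversed sign. Slide as a random block was not run, since its correlation could not be estimated from 3 arrays. No paired analysis was possible because the main test already pairs both RNAs within an array, and its 3 ratios form a single group, with no second group for a further replicate block. Depth is the signal over background: the third Tet3 probe was not well above it in either RNA.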
